A study of Homo sapiens and Mus musculus with 16 samples.

Results

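Transcripts of the WNT pathway were followed between P-bodies and the cytoplasm in 4 cell types: the WNT ligands, their Frizzled receptors and the core components that carry the signal to the nucleus. Members were taken by a rule on gene symbols that used no values, chosen with earlier results of these data known. They were all WNT and FZD genes with a family number, DVL1 to DVL3, the TCF7 family with LEF1, LRP5, LRP6, CTNNB1, APC, AXIN1, AXIN2, GSK3B, PORCN and WLS. The rule found 43 of the 22286 genes in the human count table and 31 of the 15881 genes in the mouse table. Genes with under 10 reads over all samples had been removed from these tables, which hold 12 human and 4 mouse libraries. The numbers found thus depend on expression and are not family sizes. Every role had the same number of members in both species except the ligands, with 17 in the human and 5 in the mouse table. The other roles held 10 Frizzled receptors, 2 LRP co-receptors, 3 Dishevelled proteins, 4 destruction complex proteins, β-catenin, 4 TCF/LEF factors and 2 ligand secretion proteins.

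P-bodies are cytoplasmic condensates of repressed mRNA and RNA-binding proteins. The study sorted them as fluorescent particles from cells that carry LSM14A, a P-body protein, fused to GFP, and sequenced the sorted particles beside the presort cytoplasmic fraction (P-body-seq). The question at each member was whether its mRNA was more or less abundant in P-bodies than in the cytoplasm of the same cells. The 16 libraries fell into 8 groups of 2, a P-body and a cytoplasm group for each cell type. HEK293T-LSM14a-GFP is a human embryonic kidney line carrying the fusion on a lentiviral vector with an EF1a promoter. UCLA4-LSM14a-GFP is a human embryonic stem (ES) cell line in which the fusion was placed in a tet-inducible AAVS1 vector, and it was differentiated to liver bud progenitors and to day 20 neurons. KH2-LSM14a-GFP is a mouse ES cell line, labelled as grown in serum-LIF and carrying the lentiviral fusion. All groups therefore shared the GFP-LSM14A transgene, and no group lacked it. In the study's protocols the GSK3 inhibitor CHIR99021, which activates the pathway, was given at the start of the endoderm differentiation and in the neural induction medium. It was not part of the neuronal differentiation medium. The mouse ES cell medium in the study's methods also contains CHIR99021, whereas the label gives serum-LIF. Whether these mouse cells received CHIR99021 is therefore not known here.

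A WNT ligand is lipidated by Porcupine (PORCN), carried to the cell surface by Wntless (WLS) and bound by a Frizzled receptor together with LRP5 or LRP6. In the absence of a ligand, a complex of APC, AXIN and GSK3 marks β-catenin for destruction. Ligand binding recruits Dishevelled to the membrane and inactivates this complex, so that β-catenin accumulates and activates target genes with TCF and LEF factors. The pathway patterns the early embryo, sustains mouse ES cells and acts repeatedly in liver and nervous system development.

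Library totals ran from 6368953 to 17972284 counts. A count of 3 in a library corresponded to 0.167 to 0.471 CPM (counts scaled to a common library total). Replicates of 7 groups had Spearman correlations of 0.962 to 0.988 over all genes, and the neuron P-body libraries stood apart at 0.915. The neuron marker list was expressed at at least 1 CPM in neurons for 10 of 10 genes, with a summed level of 9050 to 13900 CPM against 228 to 266 CPM in liver bud progenitors. All 12 genes of the liver bud marker list passed 1 CPM in liver bud progenitors, where they summed to 487 to 508 CPM in the cytoplasm and 259 to 267 CPM in P-bodies. In neuron cytoplasm 3 of these 12 genes passed 1 CPM, and AFP, APOA1, FOXA1 and FOXA2 were at 0. Neuron P-bodies summed to 256 CPM for this list, nearly all of it PROX1 (244 and 246 CPM), a gene also expressed in neural cells. HEK293T P-bodies summed to 286 to 289 CPM, above liver bud P-bodies. Neural progenitor markers summed to 2040 to 3620 CPM in neurons, with 8 of 8 genes over 1 CPM, and to 2630 to 2920 CPM in liver bud progenitors, with 6 of 8. Liver bud progenitors also held 8 of 8 primed pluripotency markers at 1410 to 2800 CPM, against 35.8 to 59.1 CPM in neurons. All 10 mouse ES markers passed 1 CPM in the mouse cells, at 5430 to 5720 CPM. The 6 HEK293T markers summed to 290 to 630 CPM in HEK293T cells and to 2890 to 3470 CPM in neurons, so this list did not set the line apart.

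Depleted members outnumbered enriched ones in liver bud progenitors, neurons and mouse ES cells, and the numbers were close in HEK293T cells. The mRNAs of β-catenin, DVL2, DVL3, LRP5 and PORCN were depleted and those of APC and FZD6 were enriched in all 4 cell types. A member was counted where its mean over the libraries compared was at least 1 CPM, and was called at an adjusted p under 0.05 in edgeR's quasi-likelihood test across all genes. In HEK293T cells 30 members passed this level, of which 8 were enriched and 9 depleted (26.7% and 30%), against 32% and 38% of all genes of at least 1 CPM. In liver bud progenitors 5 of 31 were enriched and 12 depleted (16.1% and 38.7%, background 32.3% and 24.6%). In neurons 5 of 35 were enriched and 11 depleted (14.3% and 31.4%, background 19.9% and 21.1%). In mouse ES cells 6 of 25 were enriched and 9 depleted (24% and 36%, background 33.8% and 20.2%). The share of depleted members thus lay above the background in the last 3 cell types and below it in HEK293T cells. Of the counted members, 1 in HEK293T cells, 1 in liver bud progenitors and 2 in neurons reached 1 CPM through a single fraction.

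The median log2 change (P-body over cytoplasm) of the counted members was -0.26 in HEK293T cells, -0.29 in liver bud progenitors, -0.42 in day 20 neurons and -0.09 in mouse ES cells. Over all genes of at least 1 CPM the medians were -0.13, 0.05, -0.12 and 0.04, respectively. Both P-body libraries lay on one side of both cytoplasm libraries for 23, 22, 28 and 17 members, respectively, and for 85.2%, 78.2%, 73.9% and 76.9% of all counted genes. Scaling by library size alone, in place of TMM, turned the mouse member calls to 4 enriched and 15 depleted, with 32.7% of all calls enriched instead of 62.5%, and moved the median of all genes to -0.36. It gave 4 enriched and 14 depleted members in liver bud progenitors (45.3% of all calls enriched, from 56.8%) and 5 and 9 in neurons (59.6%, from 48.6%). In neurons the number of depleted members was 7 without cytoplasm replicate 1 and 14 without P-body replicate 2.

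**Figure D1:**
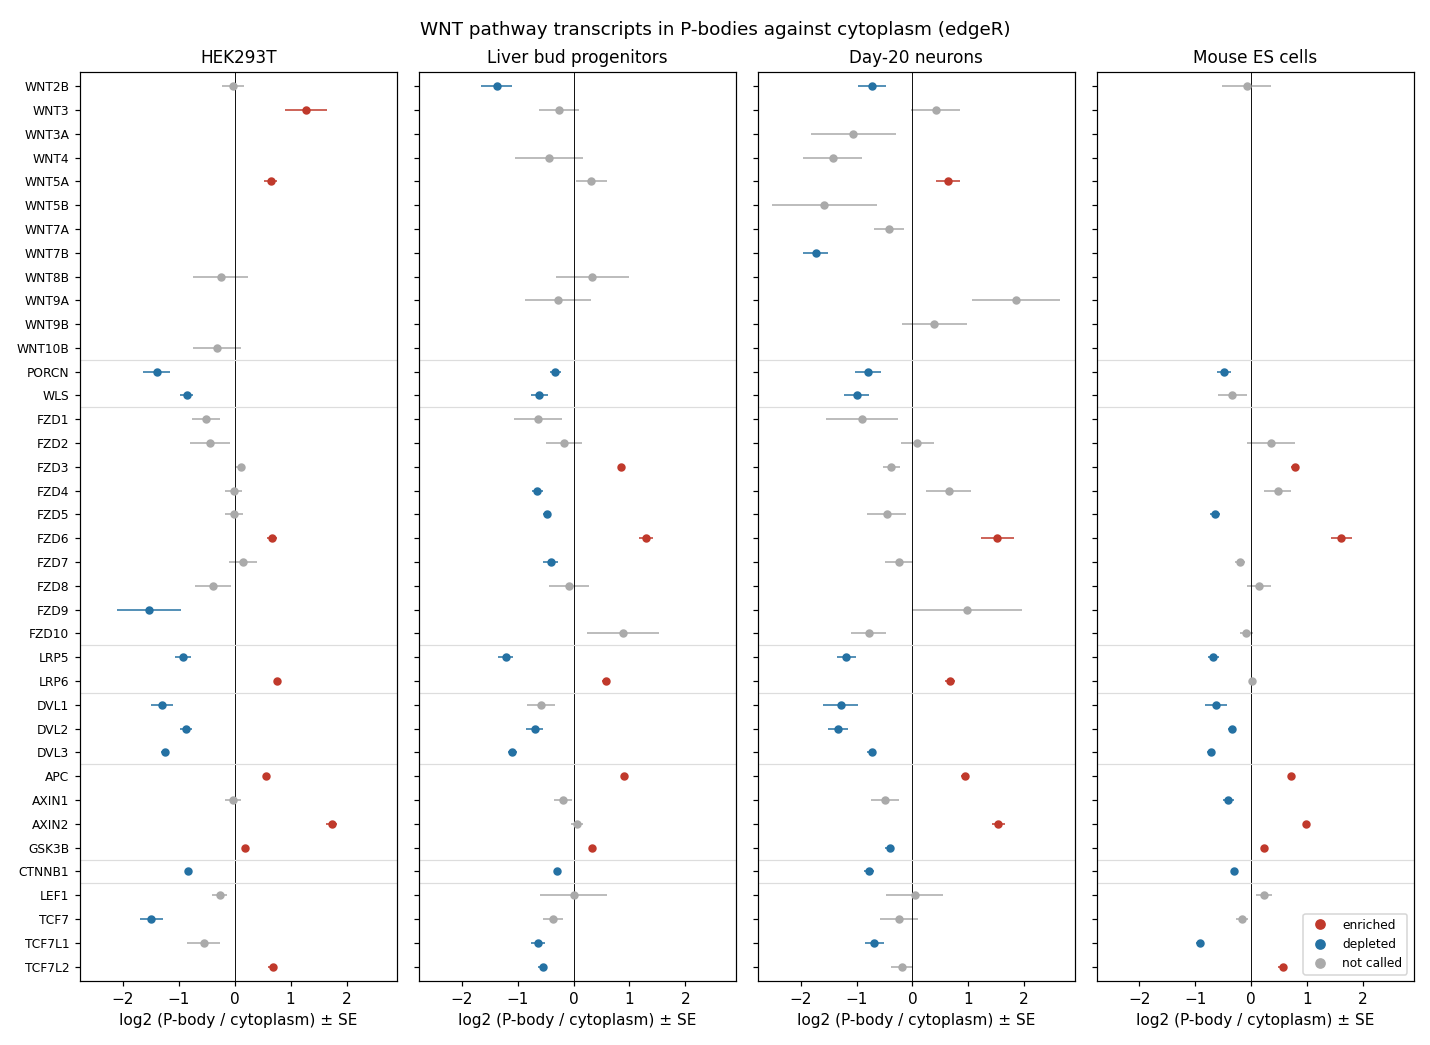
Log2 change between P-bodies and cytoplasm for each member counted in a cell type (points, with the standard error as bars, 2 libraries per group), colored by call and ordered by role, with mouse genes under their human symbols. The 3 Dishevelled genes, CTNNB1, LRP5 and PORCN lie left of 0 in every panel, and APC and FZD6 lie right of 0 in every panel.

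The plot of log2 changes shows all counted members side by side. Of 23 members counted in all 4 cell types, APC and FZD6 were enriched in all 4 (8.7%, against 14% of 9169 genes so counted), and CTNNB1, DVL2, DVL3, LRP5 and PORCN were depleted in all 4 (21.7%, against 7.21%). GSK3B and TCF7L2 had opposite calls in different cell types, and the other 14 were not called in at least 1 cell type. HEK293T and mouse ES cell libraries were made from total RNA and the others from polyA RNA, so cell type and library kind cannot be told apart between these pairs of cell types. The study describes replicates as biologically independent samples. The labels do not say whether they came from separate cultures, and p-values measure the spread between these libraries.

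Among the co-receptors, LRP6 was P-body enriched in the 3 human cell types and LRP5 was depleted in all 4 cell types. Both are single-pass receptors that bind WNT beside Frizzled and recruit AXIN to the membrane through repeated signaling motifs on their tails. The first of these motifs was located by translating the longest annotated coding sequence of each gene (GENCODE 44, hg38). It is shown because the paralogs encode the same motif with different codons. Capitals mark G or C at the last position of a codon.
LRP6: cctccaccatcCccagcCaca
LRP5: ccGccGccCtcCccGgcCacG
The LRP6 copy lies at chr12:12124633-12124653 on the minus strand and the LRP5 copy at chr11:68446445-68446465 on the plus strand, both within a coding exon. They differ at 5 of 21 bases, all 5 at the last codon position. LRP6 has G or C at 2 of these 7 positions and LRP5 at 7 of 7. Whole transcripts differed in the same sense, at 40.95% GC for LRP6 and 62.89% for LRP5. The pairs of sequences were chosen for display after their values were seen.

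Levels are given as TMM-scaled CPM within the 4 libraries of a cell type, with P-body replicates 1 and 2 before cytoplasm replicates 1 and 2. LRP6 was at 224 and 226 CPM in HEK293T P-bodies and at 135 and 130 CPM in the cytoplasm (log2 change 0.76 ± 0.06 SE, adjusted p = 4.67e-16, edgeR). In neurons it was at 209 and 206 CPM in P-bodies and at 129 and 132 CPM in the cytoplasm (0.67 ± 0.10, adjusted p = 0.000152). The groups were well apart in both, and liver bud progenitors gave a change of 0.57 ± 0.06. The mouse Lrp6 values overlapped, at 219 and 213 CPM in P-bodies and 213 CPM in both cytoplasm libraries (0.02 ± 0.05, adjusted p = 0.775). This mouse value became -0.38 (adjusted p = 1.29e-07) when libraries were scaled by size alone. LRP5 was at 18.6 and 22.6 CPM in liver bud P-bodies and at 48.3 and 47.6 CPM in the cytoplasm (-1.22 ± 0.13, adjusted p = 1.07e-12). Its cytoplasmic libraries were far above its P-body libraries there. HEK293T cells gave a log2 change of -0.92 ± 0.14, neurons of -1.18 ± 0.17 and mouse ES cells of -0.68 ± 0.10.

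Frizzled receptors, which bind WNT through a cysteine-rich domain and pass the signal to Dishevelled, did not move as a family. FZD6 was enriched in all 4 cell types, by 0.66 ± 0.10 in HEK293T cells, 1.30 ± 0.13 in liver bud progenitors, 1.52 ± 0.29 in day 20 neurons and 1.61 ± 0.18 in mouse ES cells. In liver bud P-bodies it was at 55.3 and 50.6 CPM, against 23.6 and 19.5 CPM in the cytoplasm (adjusted p = 3.12e-14, edgeR). FZD3, known for its part in axon guidance and planar polarity, followed it in only some cells. It was at 255 and 255 CPM in liver bud P-bodies and 145 and 137 CPM in the cytoplasm (0.86 ± 0.07, adjusted p = 1.50e-17). Mouse Fzd3 was at 92.5 and 90.9 CPM in P-bodies and 51.9 and 54.7 CPM in the cytoplasm (0.78 ± 0.07, adjusted p = 2.66e-09). P-body libraries were high and clear of the cytoplasm in both, while the log2 change was 0.11 ± 0.08 in HEK293T cells and -0.38 ± 0.15 in neurons, neither called. RLE factors gave a call in HEK293T cells (0.20, adjusted p = 0.0494). The neuron value was called as depletion without P-body replicate 2 (-0.61, adjusted p = 0.000496) or cytoplasm replicate 1 (-0.55, adjusted p = 0.0114), with a replicate block (-0.38, adjusted p = 0.000753) and in the fit of all human libraries (-0.48, adjusted p = 0.00252).

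FZD5, FZD4 and FZD7 were depleted where they were called in the main fits. FZD5, a receptor with a known role in eye development, had a change of -0.48 ± 0.07 in liver bud progenitors. Its neuron change was called in the fit of all human libraries (-0.58, adjusted p = 0.00646, edgeR). The mouse gene was at 41.7 and 46.7 CPM in P-bodies and 72.1 and 66.4 CPM in the cytoplasm (-0.65 ± 0.09, adjusted p = 8.36e-07). FZD4, a receptor for Norrin as well as WNT, was depleted in liver bud progenitors (-0.65 ± 0.10). Mouse Fzd4 was not called (0.47 ± 0.24), but was called as enrichment without P-body replicate 2 (0.74). FZD7, an abundant receptor of pluripotent cells, was at 25.5 and 24.8 CPM in liver bud P-bodies and 29.9 and 36.4 CPM in the cytoplasm (-0.41 ± 0.14, adjusted p = 0.0122). DESeq2 did not call this change (adjusted p = 0.0919), and edgeR did not without P-body replicate 2 (-0.39, adjusted p = 0.0665) or cytoplasm replicate 2 (-0.29, adjusted p = 0.212).

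FZD7 was not called in the other cell types under TMM. In HEK293T cells it was at 4.80 and 4.76 CPM in P-bodies and 4.66 and 4 CPM in the cytoplasm (0.14 ± 0.25). In neurons it was at 14.3 and 15.2 against 18.8 and 16.0 CPM (-0.23 ± 0.25). The mouse levels were 39.7 and 37.3 against 42.2 and 46.4 CPM (-0.20 ± 0.10). The groups did not overlap, and the HEK293T and neuron changes were within 1 SE of 0. The mouse value was called as depletion with library size (-0.60, adjusted p = 4.88e-06) and with the filterByExpr filter (-0.29, adjusted p = 0.0134). FZD1, FZD2 and FZD8 passed 1 CPM in 3, 4 and 3 cell types and were called in none under TMM, with FZD1 called depleted in HEK293T cells with library size (-0.65, adjusted p = 0.0335). FZD9 was counted in HEK293T cells and neurons and was depleted in the former at about 1 CPM (-1.54 ± 0.57, adjusted p = 0.0232). That call was lost in DESeq2 (adjusted p = 0.132) and without HEK293T P-body replicate 1 (-1.57, adjusted p = 0.0773), P-body replicate 2 (-1.5, adjusted p = 0.106) or cytoplasm replicate 1 (-1.30, adjusted p = 0.183).

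The coding region of most Frizzled genes is a single exon. Of the counted single-exon genes, 0 of 6 were enriched in each human cell type and 0 of 5 in mouse ES cells. Depleted were 1, 2, 0 and 1 in HEK293T cells, liver bud progenitors, neurons and mouse ES cells. Their log2 changes were -1.54 to 0.98 over all 4 cell types. FZD3, FZD4 and FZD6 have several coding exons and gave 1, 2, 1 and 2 enriched of 3 in HEK293T cells, liver bud progenitors, neurons and mouse ES cells. In the same order, 0, 1, 0 and 0 of them were depleted. Over all counted genes the shares were 32%, 32.3%, 19.9% and 33.8% enriched and 38%, 24.6%, 21.1% and 20.2% depleted. With so few genes, no pattern by exon number can be read from these counts. The groups of genes also differed in GC content, at 47.62% to 68.46% for the single-exon and 34.94% to 46.24% for the multi-exon human genes, so exon number and GC content cannot be told apart here.

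Few ligands were expressed, and those that were took both directions. Of the 17 human ligands, 5 passed 1 CPM in HEK293T cells, 6 in liver bud progenitors and 10 in neurons, and of the 5 mouse ligands only Wnt2b did. WNT1, WNT2, WNT8A, WNT11 and WNT16 passed in no cell type. All WNT proteins carry a conserved stretch with the serine that PORCN acylates, and its translated motif was found in 17 of 17 human members. The copies of WNT5A, a mostly β-catenin-independent ligand, and WNT7B, a ligand that drives brain vessel growth, are shown because these mRNAs had opposite calls in neurons. Capitals again mark G or C at the last codon position.
WNT5A: tgCcatggGgtGtcCggCtcatgt
WNT7B: tgCcaCggCgtGtctggCtcCtgC
They lie at chr3:55470494-55470517 and chr22:45923279-45923302 (hg38), both on the minus strand within a coding exon, and differ at 5 of 24 bases, all at the last codon position. The whole transcripts held 42.32% and 63.04% GC.

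WNT7B was at 12.7 and 19.8 CPM in neuron P-bodies and at 57.7 and 50.5 CPM in the cytoplasm (-1.73 ± 0.22, adjusted p = 5.48e-05, edgeR). It was the most strongly depleted member called in neurons and was under 1 CPM in the other human cell types. WNT5A was enriched in neurons, at 28.7 and 28.4 CPM in P-bodies against 17.2 and 19.5 CPM in the cytoplasm (0.64 ± 0.21, adjusted p = 0.0388). The groups did not overlap, but the call was lost in DESeq2 (adjusted p = 0.0519) and without neuron cytoplasm replicate 1 (0.54, adjusted p = 0.361) or replicate 2 (0.72, adjusted p = 0.183). In HEK293T cells WNT5A was enriched by 0.65 ± 0.12 (adjusted p = 3.07e-06), a call kept under all 10 alternatives. In liver bud progenitors its change was 0.32 ± 0.27 and was not called.

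WNT3, an early ligand of the primitive streak, was enriched in HEK293T cells at low level (1.27 ± 0.37, adjusted p = 0.00354), but not without P-body replicate 1 (1.08, adjusted p = 0.0812). WNT2B, a ligand of the WNT2 subfamily, was depleted in liver bud progenitors with a wide spread, at 2.58 and 9.73 CPM in P-bodies and 21.4 and 11.3 CPM in the cytoplasm (-1.37 ± 0.28, adjusted p = 2.46e-05). DESeq2 did not call it (adjusted p = 0.24). Its depletion in neurons (-0.72 ± 0.25, adjusted p = 0.0482) was lost under 7 of 10 alternatives, including those without neuron cytoplasm replicate 1 (-0.81, adjusted p = 0.223) and replicate 2 (-0.65, adjusted p = 0.358).

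The mRNAs of the proteins that make and export ligands were depleted where they were called. PORCN, the acyltransferase, had log2 changes of -1.39 ± 0.24 in HEK293T cells, -0.33 ± 0.10 in liver bud progenitors, -0.80 ± 0.22 in day 20 neurons and -0.49 ± 0.13 in mouse ES cells. The HEK293T call was kept under all alternatives. The others were each lost without 1 library or more: liver bud P-body replicate 2 (-0.31), neuron cytoplasm replicate 1 (-0.65) and mouse cytoplasm replicate 2 (-0.33). The liver bud call was also lost in DESeq2 (-0.34, adjusted p = 0.0536) and in the edgeR fit of all human libraries (-0.35, adjusted p = 0.14). WLS, the carrier of lipidated WNT, fell by 0.86 on the log2 scale in HEK293T P-bodies, by 0.61 in liver bud progenitors and by 1.00 in neurons. It was not called in mouse ES cells (-0.34 ± 0.26), but was without cytoplasm replicate 1 (-0.68, adjusted p = 0.0343) and with library size (-0.74, adjusted p = 0.0146), and its neuron call was lost without cytoplasm replicate 1 (-0.92, adjusted p = 0.053).

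Dishevelled mRNAs were the most uniform group. The 3 paralogs encode scaffolds that link Frizzled to both the β-catenin and the polarity branch. DVL3 (hg38 chr3:184155377-184173614, plus strand) was at 62.8 and 66.9 CPM in HEK293T P-bodies and 157 and 150 CPM in the cytoplasm (-1.24 ± 0.07, adjusted p = 2.30e-22, edgeR). It was at 75.6 and 77.1 CPM in liver bud P-bodies and 167 and 159 CPM in the cytoplasm (-1.10 ± 0.08, adjusted p = 7.04e-20). The cytoplasm libraries stood above the P-body libraries with little spread in both. Neuron P-bodies held DVL3 at 242 and 241 CPM against 405 and 396 CPM (-0.73 ± 0.08, adjusted p = 1.98e-05). Mouse Dvl3 was at 58.0 and 57.2 CPM against 98.3 and 91.9 CPM (-0.72 ± 0.07, adjusted p = 8.92e-09). The order of the fractions was the same in each cell type, with no overlap.

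DVL2 was at 30.1 and 31.9 CPM in HEK293T P-bodies and 57.4 and 56.1 CPM in the cytoplasm (-0.87 ± 0.10, adjusted p = 8.59e-11). Liver bud progenitors gave a log2 change of -0.70 ± 0.15, neurons of -1.33 ± 0.17 and mouse ES cells of -0.35 ± 0.07. The DVL2 and DVL3 calls were kept under all alternatives in all 4 cell types. DVL1 was depleted in HEK293T cells (-1.30 ± 0.20), neurons (-1.28 ± 0.32) and mouse ES cells (-0.63 ± 0.19), and was not called in liver bud progenitors (-0.58 ± 0.25, adjusted p = 0.0616). The liver bud value was called without P-body replicate 1 (-0.78, adjusted p = 0.0265) or cytoplasm replicate 1 (-0.92, adjusted p = 0.00482), with RLE factors (-0.59, adjusted p = 0.037) and with library size (-0.76, adjusted p = 0.00739). Its neuron call was lost without cytoplasm replicate 1 (-1.08) and its mouse call without P-body replicate 2 (-0.49). The mouse call was also lost in DESeq2 (-0.64, adjusted p = 0.0993).

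The destruction complex went the other way for APC and AXIN2. APC (hg38 chr5:112707518-112846239, plus strand) encodes the large tumor suppressor scaffold that holds β-catenin in the complex. It was at 848 and 892 CPM in HEK293T P-bodies and 586 and 600 CPM in the cytoplasm (0.55 ± 0.05, adjusted p = 1.53e-14, edgeR). Liver bud P-bodies held it at 918 and 954 CPM against 528 and 470 CPM (0.91 ± 0.05, adjusted p = 6.19e-24). P-body libraries were high in each case, and both replicates agreed closely. In neurons APC was at 1349 and 1385 CPM against 687 and 739 CPM (0.94 ± 0.07, adjusted p = 8.79e-07). Mouse Apc was at 1624 and 1616 CPM against 1017 and 951 CPM (0.72 ± 0.04, adjusted p = 2.54e-14). APC was called under all alternatives in each cell type.

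AXIN2 (hg38 chr17:65528563-65561648, minus strand) is both a scaffold of the complex and a classical target gene of the pathway. It had the largest enrichment of any called member in HEK293T cells, with 111 and 102 CPM in P-bodies and 29.9 and 34.1 CPM in the cytoplasm (1.73 ± 0.09, a 3.32-fold difference, adjusted p = 1.27e-24). In neurons it was at 229 and 185 CPM in P-bodies and 72.3 and 70.1 CPM in the cytoplasm (1.54 ± 0.12, adjusted p = 9.77e-07). Mouse Axin2 was at 209 and 205 CPM against 101 and 108 CPM (0.98 ± 0.06, adjusted p = 1.73e-13). The groups were far apart in these 3 cell types. In liver bud progenitors they overlapped, at 53.5 and 51.3 CPM in P-bodies and 46.0 and 53.9 CPM in the cytoplasm (0.06 ± 0.10, adjusted p = 0.687), a value whose sign changed to -0.12 with scaling by library size. Its paralog AXIN1, the constitutive scaffold, was not called in the human cell types (-0.03, -0.19 and -0.49 in HEK293T cells, liver bud progenitors and neurons) and was depleted in mouse ES cells (-0.41 ± 0.10). Its neuron value was called without P-body replicate 1 (-0.88, adjusted p = 0.00101) and in the fit of all human libraries (-0.60, adjusted p = 0.0228).

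GSK3B, the kinase that phosphorylates β-catenin, changed by small amounts. It was at 227 and 211 CPM in HEK293T P-bodies and 199 and 186 CPM in the cytoplasm (0.19 ± 0.06, adjusted p = 0.0114). This call was lost with scaling by library size (0.06, adjusted p = 0.54) and without P-body replicate 1 (0.13, adjusted p = 0.262) or cytoplasm replicate 2 (0.15, adjusted p = 0.0869). It was at 275 and 288 CPM in liver bud P-bodies and 223 and 224 CPM in the cytoplasm (0.33 ± 0.06, adjusted p = 1.06e-05), where scaling by library size gave 0.15 (adjusted p = 0.0751). Neurons showed the opposite order, with 356 and 363 CPM in P-bodies below 479 and 474 CPM in the cytoplasm (-0.41 ± 0.08, adjusted p = 0.00162), and -0.24 (adjusted p = 0.0641) with library size. The mouse levels were 245 and 250 CPM against 210 and 214 CPM (0.22 ± 0.05, adjusted p = 0.000449), a call that turned to depletion with scaling by library size (-0.18, adjusted p = 0.00243). The groups did not overlap in any of the 4 cell types under TMM.

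CTNNB1 (hg38 chr3:41194741-41260096, plus strand), which encodes β-catenin, was depleted in all 4 cell types under all alternatives. It was at 221 and 217 CPM in HEK293T P-bodies and 400 and 385 CPM in the cytoplasm (-0.84 ± 0.06, adjusted p = 1.26e-19, edgeR). Liver bud P-bodies held it at 306 and 305 CPM against 371 and 378 CPM (-0.29 ± 0.06, adjusted p = 2.38e-05). P-body libraries lay below the cytoplasm in both, by less in liver bud progenitors. In neurons it was at 234 and 225 CPM against 407 and 383 CPM (-0.78 ± 0.09, adjusted p = 1.49e-05). Mouse Ctnnb1 was at 231 CPM in both P-body libraries against 281 and 294 CPM (-0.31 ± 0.05, adjusted p = 4.07e-06). CTNNB1 and APC, the substrate and its scaffold, thus had opposite signs in each cell type.

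**Figure D2:**
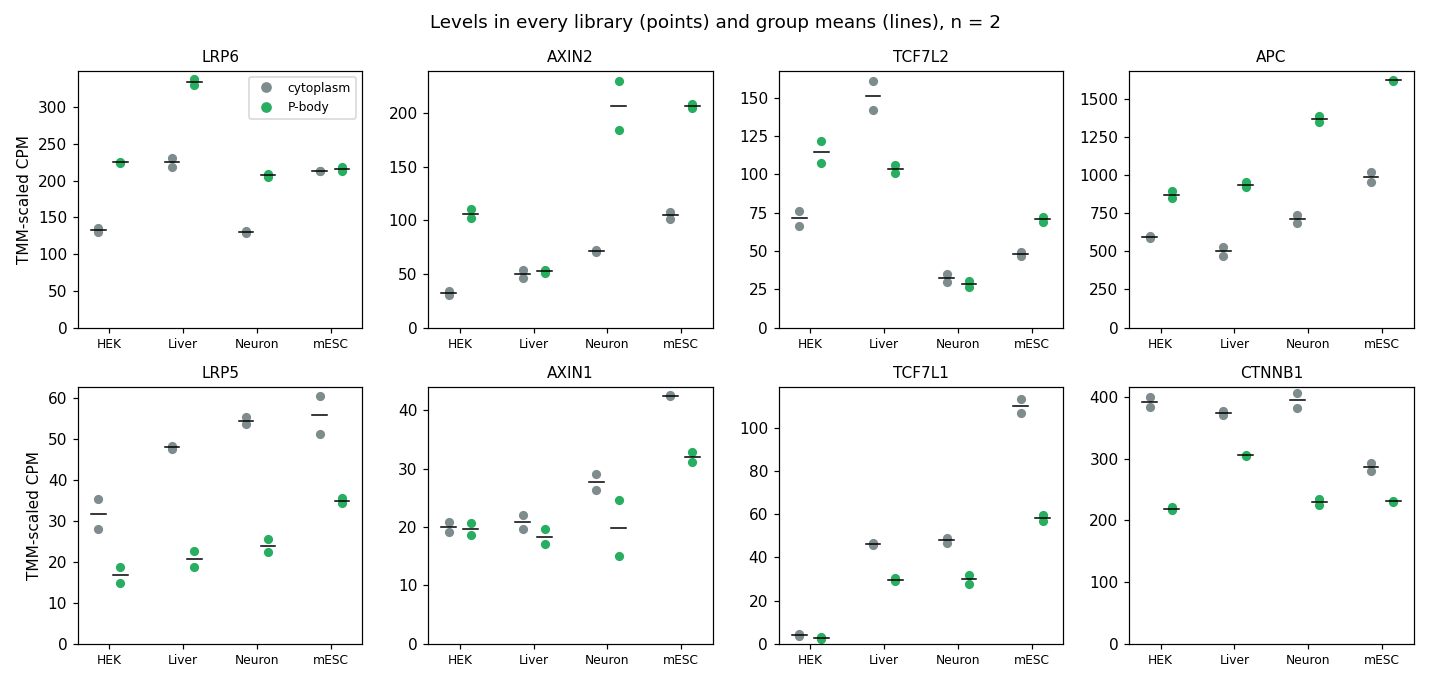
TMM-scaled CPM of 8 members in every library (gray points, cytoplasm, and green points, P-body), with group means as lines, for HEK293T cells, liver bud progenitors, neurons and mouse ES cells. LRP6 lies higher in P-bodies in the human cell types and LRP5 lower in all 4. TCF7L2 changes order between HEK293T cells and liver bud progenitors, which also differ in library kind.

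The plot of levels in every library sets these paralogs side by side, with a vertical axis that starts at 0 in each panel. The TCF/LEF factors bind DNA and turn β-catenin into a transcriptional activator. Their DNA-binding HMG box opens with a stretch encoded in all 4 genes, and the copies of TCF7L2 and TCF7L1 are shown because these paralogs had opposite calls in mouse ES cells. Capitals mark G or C at the last codon position of the human sequences.
TCF7L2: ataaaGaaacctcttaatgcattCatG
TCF7L1: gtGaaGaaGcctctGaatgcCttCatG
They lie at chr10:113151771-113151797 and chr2:85306252-85306278 (hg38), both on the plus strand within a coding exon. They differ at 5 of 27 bases, 4 of them at the last codon position. The whole human transcripts held 45.58% and 61.37% GC.

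TCF7L2, a WNT effector of the gut, took opposite directions in different cell types. It was at 101 and 106 CPM in liver bud P-bodies and 142 and 161 CPM in the cytoplasm (-0.55 ± 0.08, adjusted p = 6.93e-09, edgeR). In HEK293T cells it was instead enriched, at 122 and 107 CPM in P-bodies against 66.5 and 76.2 CPM in the cytoplasm (0.68 ± 0.08, adjusted p = 7.64e-11). Both calls were kept under all alternatives, and the groups were clear of each other in both. The mouse gene was enriched by 0.56 ± 0.08 (adjusted p = 2.59e-06), but not with scaling by library size (0.16, adjusted p = 0.0987). In neurons the change was -0.19 ± 0.19. The enriched calls were in total RNA libraries and the depleted call in polyA libraries. Cell type and library kind thus cannot be told apart for TCF7L2. TCF7L1, mostly a repressor in pluripotent cells, was at 59.5 and 56.6 CPM in mouse P-bodies and 113 and 107 CPM in the cytoplasm (-0.92 ± 0.07, adjusted p = 6.64e-11). It was also depleted in liver bud progenitors (-0.64 ± 0.12) and in neurons (-0.68 ± 0.17). The neuron call was lost without cytoplasm replicate 1 (-0.66, adjusted p = 0.107) or replicate 2 (-0.73, adjusted p = 0.0538).

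TCF7 was depleted in HEK293T cells (-1.49 ± 0.21) and not called elsewhere under TMM. With library size it was called in liver bud progenitors (-0.55, adjusted p = 0.0101) and mouse ES cells (-0.57, adjusted p = 7.77e-05), and with filterByExpr in liver bud progenitors (-0.46, adjusted p = 0.034). LEF1, a factor that responds to WNT in many progenitors, was not called under TMM. It was at 21.5 and 21.5 CPM in HEK293T P-bodies and 26.6 and 25.3 CPM in the cytoplasm (-0.27 ± 0.13, adjusted p = 0.0992), and was called there with library size (-0.40, adjusted p = 0.00961). Mouse Lef1 was at 24.3 and 21.5 against 22.0 and 17.1 CPM (0.23 ± 0.15), with overlapping groups, and was called without cytoplasm replicate 1 (0.42, adjusted p = 0.0431). It was scarce in liver bud progenitors, at 1.23 and 1.35 against 1.32 and 1.27 CPM, and in neurons, at 5.85 and 2.97 against 4.16 and 4.40 CPM, with overlapping groups in both.

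Members with AU-rich transcripts tended to higher P-body enrichment, as did genes at large. Over the counted members, the Spearman correlation between transcript GC content and log2 change was -0.624 in HEK293T cells (30 members), -0.388 in liver bud progenitors (31), -0.435 in day 20 neurons (35) and -0.568 in mouse ES cells (25). The values over all counted genes were -0.544, -0.587, -0.501 and -0.584. These are descriptions over genes measured in the same 4 libraries. The median GC content of enriched and depleted members was 42.24% and 56.42% in HEK293T cells, 40.55% and 53.70% in liver bud progenitors, 40.95% and 56.42% in neurons, and 46.67% and 55.23% in mouse ES cells.

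**Figure D3:**
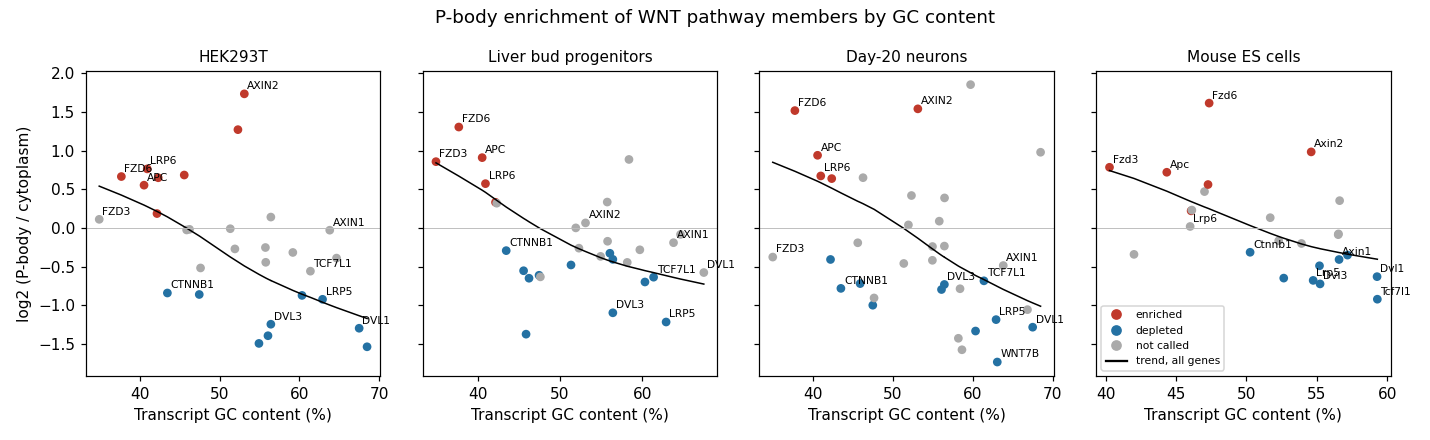
Log2 change between P-bodies and cytoplasm against transcript GC content in percent for the members counted in each cell type (points, colored by call), with the trend over all counted genes as a line. The points fall with GC content as the trend does, and AXIN2 lies above and CTNNB1 below the line in all panels.

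The plot against GC content shows the members that departed from the trend over all genes. AXIN2, with 53.10% GC, had trend values of -0.49 in HEK293T cells and -0.13 in neurons, and measured changes of 1.73 and 1.54. CTNNB1, with 43.47% GC, had trend values of 0.14, 0.27 and 0.45 in HEK293T cells, liver bud progenitors and neurons, where it was depleted. FZD3, the member with the lowest GC content (34.94%), had a trend value of 0.85 in neurons and a measured change of -0.38. Relative to the trend, the median member stood at 0.17 in HEK293T cells, 0.02 in liver bud progenitors, -0.15 in day 20 neurons and -0.06 in mouse ES cells.

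P-body enrichment itself was compared between neurons and liver bud progenitors, which share a parent line and library kind. The test was the interaction of cell type and fraction in 8 libraries, with levels scaled over these 8. Of 34 members counted, 3 were more enriched in neurons and 3 were more enriched in liver bud progenitors (8.82% each), against 12.3% and 12.5% of all counted genes. The median difference of the members was 0.02 and that of all genes -0.04. Scaling by library size gave 6 and 2 members, with 77.4% of all calls higher in neurons instead of 49.5%. Neurons and liver bud progenitors are bulk samples, in which fewer cells of a type and less RNA per cell cannot be told apart.

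AXIN2 differed most among members called higher in neurons. It was at 51.9 and 50.5 CPM in liver bud P-bodies, 44.7 and 52.2 CPM in liver bud cytoplasm, 238 and 188 CPM in neuron P-bodies and 74.6 and 71.4 CPM in neuron cytoplasm. The neuron P-body libraries were far above the other 6, neuron cytoplasm was above liver bud cytoplasm, and the difference in enrichment was 1.47 ± 0.18 (adjusted p = 2.99e-05, edgeR). FZD4 had 40.6 and 41.5 CPM in liver bud P-bodies against 63.4 and 64.3 CPM in the cytoplasm, and 9.84 and 7.66 CPM in neuron P-bodies against 6.72 and 4.38 CPM in the cytoplasm. The order of fractions was turned around, with a difference of 1.28 ± 0.29 (adjusted p = 0.00568), which was not called without neuron cytoplasm replicate 2 (0.93, adjusted p = 0.0524). DVL3 was less depleted in neurons by 0.36 ± 0.11 (adjusted p = 0.0342), a call lost in each of the 8 fits without 1 library (0.24 to 0.40, adjusted p = 0.0646 to 0.241).

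FZD3 and GSK3B were higher in liver bud P-bodies relative to cytoplasm. FZD3 was at 247 and 252 CPM in liver bud P-bodies and 141 and 132 CPM in the cytoplasm, and at 96.3 and 127 CPM in neuron P-bodies and 129 and 161 CPM in the cytoplasm. The difference was -1.24 ± 0.18 (adjusted p = 0.000146), and liver bud P-bodies were the group that stood apart. GSK3B was at 267 and 284 CPM against 217 and 217 CPM in liver bud progenitors, and at 370 and 369 CPM against 494 and 483 CPM in neurons, a difference of -0.75 ± 0.10 (adjusted p = 7.35e-05). The calls of AXIN2, FZD3 and GSK3B were kept under all 14 alternatives. CTNNB1 differed by -0.50 ± 0.10 (adjusted p = 0.00305), a call lost with scaling by library size (-0.14, adjusted p = 0.416).

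**Figure D4:**
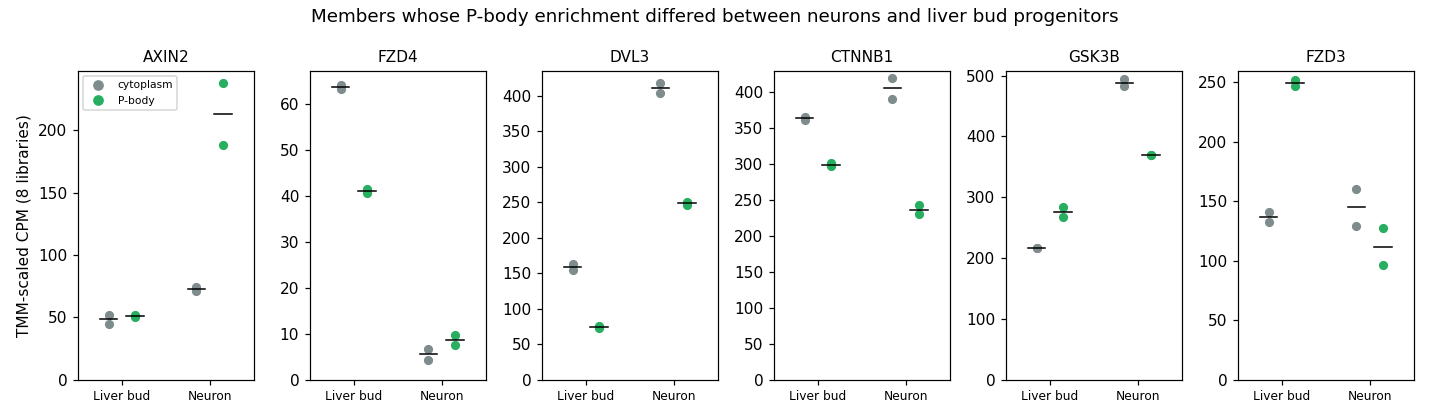
TMM-scaled CPM, scaled over 8 libraries, of the 6 members whose P-body enrichment differed between liver bud progenitors and neurons, in cytoplasm (gray) and P-bodies (green), with points for libraries and lines for group means (n = 2). AXIN2 is highest in neuron P-bodies and FZD3 in liver bud P-bodies, and the order of fractions is turned around for FZD4 and GSK3B.

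The number of members higher in liver bud progenitors rested on the neuron P-body libraries. It was 8 without neuron P-body replicate 1 and 7 without replicate 2, and the number higher in neurons was 1 without neuron cytoplasm replicate 2. DVL2 and FZD10 were called without either neuron P-body library (DVL2 -0.56 and -0.97, FZD10 -1.70 and -1.85), AXIN1, PORCN and WLS without replicate 1 (-0.80, -0.78 and -0.78), and WNT4, WNT7B and WNT9A without replicate 2 (-2.34, -2.01 and 2.79). WNT2B was called without liver bud P-body replicate 2 (1.94). The plot of the 6 members shows that CTNNB1 and DVL3 were depleted in both cell types, to different degrees.

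The pathway also differed between these cell types in the levels of its mRNAs. In the cytoplasm 14 of 34 members were higher in neurons and 9 were higher in liver bud progenitors (41.2% and 26.5%, background 27.7% and 33%). In P-bodies 15 and 11 were (44.1% and 32.4%, background 28.8% and 35.7%). The median log2 difference, neurons over liver bud progenitors, was 0.45 in the cytoplasm and 0.23 in P-bodies, against -0.08 and -0.14 over all genes. A further 2 members under 1 CPM were called in each fraction and are left out of these counts. The level was a mean over 8 libraries, so a member could pass it through a single cell type and still enter these counts and medians. These comparisons share their libraries with the test of the interaction.

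FZD5 (hg38 chr2:207762598-207769906, minus strand) had the largest difference of the members called higher in liver bud progenitors. Its cytoplasmic libraries were at 209 and 229 CPM in liver bud progenitors and 10.1 and 9.68 CPM in neurons, a 22.1-fold difference (log2 -4.47 ± 0.13, adjusted p = 1.84e-13, edgeR). Its P-body libraries were at 158 and 159 CPM and at 8.13 and 6.35 CPM (-4.46 ± 0.13, adjusted p = 2.92e-13). Liver bud libraries were high in both fractions. TCF7L2 was at 138 and 156 CPM in liver bud cytoplasm and 30.8 and 36.0 CPM in neuron cytoplasm (-2.14 ± 0.12, adjusted p = 6.77e-10), and at 97.7 and 105 CPM against 31.5 and 27.2 CPM in P-bodies (-1.79 ± 0.13, adjusted p = 6.76e-09). FZD4 was 11.5-fold higher in liver bud cytoplasm (-3.52 ± 0.21, adjusted p = 9.07e-10), and FZD6, FZD7, LRP6 and PORCN were also called higher there.

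Neurons were higher for the 5 ligands called in the cytoplasm (WNT4, WNT5A, WNT7A, WNT7B and WNT9B) and for DVL2 and DVL3. WNT7A, WNT7B and WNT9B had means under 1 CPM in both liver bud fractions and were counted only through the neuron libraries. The direction of these ligands was therefore largely fixed by the minimum level. WNT7B was at 59.5 and 51.4 CPM in neuron cytoplasm and 0.285 and 1.22 CPM in liver bud cytoplasm (6.12 ± 0.38, adjusted p = 1.72e-09, edgeR). Its liver bud replicate 1 was under the level of 3 counts (0.471 CPM), so the size of this change is uncertain. WNT7A was at 17.5 and 23.2 CPM in neuron cytoplasm and at 0 and 0.245 CPM in liver bud cytoplasm, under the level of 3 counts, so that no fold is given. Both ligands were scarce in liver bud progenitors in either fraction. DVL3 was at 418 and 403 CPM in neuron cytoplasm and 163 and 154 CPM in liver bud cytoplasm (1.37 ± 0.08, adjusted p = 4.70e-10). GSK3B, at the levels given above, was 2.25-fold higher in neuron cytoplasm (1.17 ± 0.07, adjusted p = 1.02e-09). In P-bodies DVL3 differed by 1.73 ± 0.08 (adjusted p = 4.30e-11) and AXIN2 by 2.05 ± 0.12 (adjusted p = 1.06e-09).

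Some calls among scarce ligands rested on 1 library. WNT9A was at 9.16 and 1.41 CPM in neuron P-bodies and was called higher there than in liver bud P-bodies (2.05 ± 0.77, adjusted p = 0.0378), but in 7 of 8 fits without 1 library it was not, with a value of 0.15 (adjusted p = 0.883) without neuron P-body replicate 1. WNT4, at 1.6 and 5.84 CPM in neuron P-bodies, lost its call without replicate 2 (0.47, adjusted p = 0.527) and without either liver bud P-body library (1.6 and 1.92). Over 14 alternatives, 17 of the 23 cytoplasmic calls and 18 of the 26 P-body calls were kept throughout. Those lost under at least 1 were FZD2, FZD8, LEF1, TCF7, WLS and WNT9B in the cytoplasm and DVL2, FZD7, FZD8, LEF1, TCF7, WNT3, WNT4 and WNT9A in P-bodies. The liver bud, primed pluripotency and neuron marker sums given above moved with these comparisons. Of the 8 neural progenitor markers, 5 were called higher in neurons and 2 in liver bud progenitors in the cytoplasm, 6 and 0 in P-bodies, and 4 and 0 for the interaction. The part of these cells in the results was not tested.

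**Figure D5:**
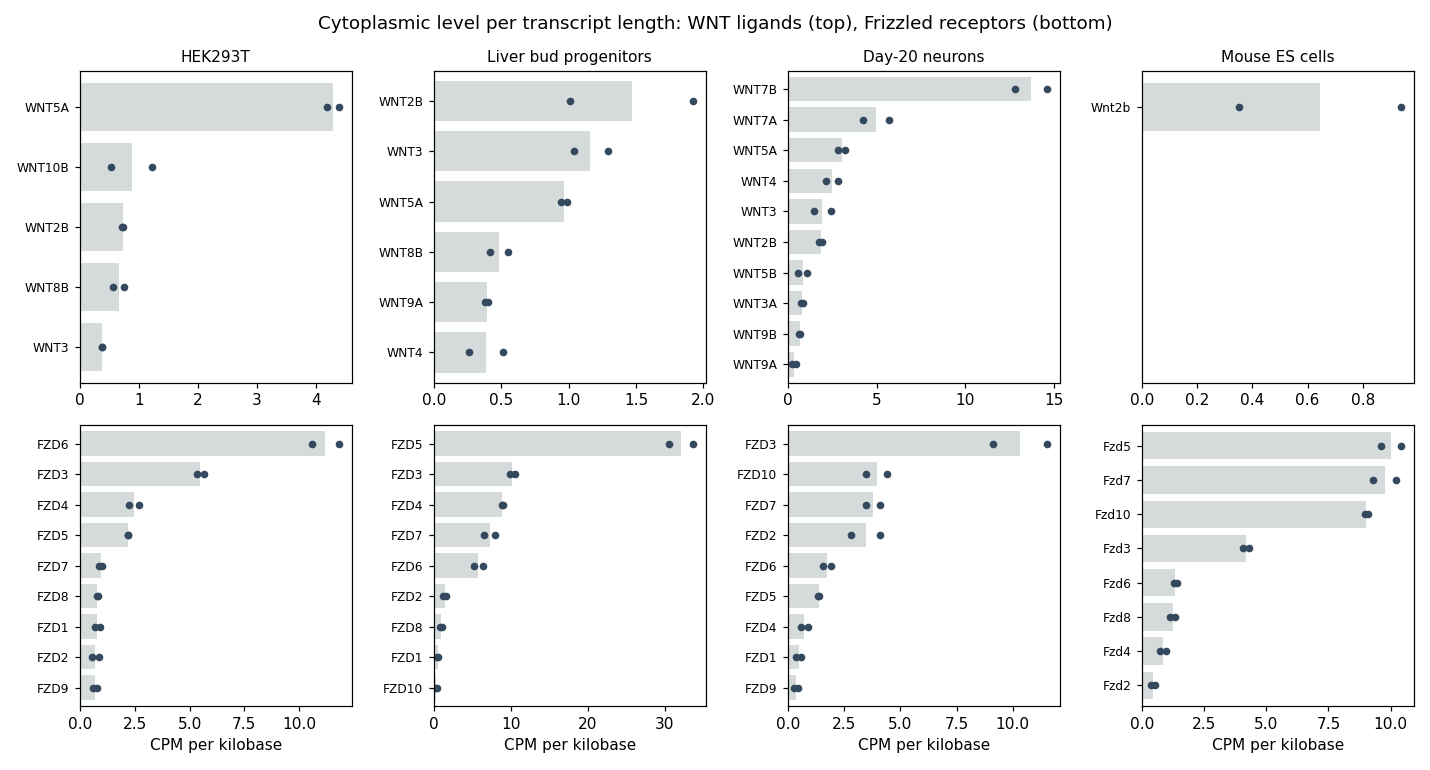
Cytoplasmic level in CPM per kilobase of the longest annotated transcript for WNT ligands (top) and Frizzled receptors (bottom) of at least 1 CPM in each cell type, with points for the 2 libraries. FZD6 leads in HEK293T cells, FZD5 in liver bud progenitors and FZD3 in neurons, Fzd5 and Fzd7 overlap at the top in mouse ES cells, and WNT7B leads the ligands in neurons.

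Levels of different genes were compared per kilobase of transcript, as the plot of cytoplasmic levels shows. The leading Frizzled mRNA was FZD6 in HEK293T cytoplasm, at 11.8 and 10.6 CPM per kilobase, above FZD3 at 5.65 and 5.32. In liver bud cytoplasm FZD5 led at 30.5 and 33.6 CPM per kilobase, above FZD3 at 10.5 and 9.91. In neurons FZD3 led at 9.11 and 11.5 CPM per kilobase, and FZD10, FZD7 and FZD2 followed with overlapping libraries. In mouse ES cells Fzd5 (10.4 and 9.60 CPM per kilobase) and Fzd7 (9.31 and 10.2) overlapped, followed by Fzd10 (8.96 and 9.09). Among ligands, WNT5A led in HEK293T cells at 4.18 and 4.38 CPM per kilobase. WNT2B and WNT3 led in liver bud progenitors with overlapping libraries, at 1.92 and 1.01 and at 1.29 and 1.04 CPM per kilobase. WNT7B led in neurons at 14.6 and 12.8 CPM per kilobase, above WNT7A at 4.26 and 5.71. The order differed in P-bodies: in neurons WNT5A (4.75 and 4.70 CPM per kilobase) and WNT7B (3.21 and 5.01) overlapped at the top, and in mouse ES cells Fzd5 (6.03 and 6.76) came after Fzd7, Fzd10 and Fzd3.

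Other genes of the pathway were read from 6 lists. Their counts stand beside the shares of all counted genes given above, which were 32% enriched and 38% depleted in HEK293T cells, 32.3% and 24.6% in liver bud progenitors, 19.9% and 21.1% in neurons and 33.8% and 20.2% in mouse ES cells. Of the 14 further destruction complex genes, 7 were enriched and 2 depleted of 12 counted in HEK293T cells, 6 and 4 of 12 in liver bud progenitors, 1 and 5 of 14 in neurons, and 7 and 3 of 12 in mouse ES cells. For each list, the gene named is the called one of largest change per direction and cell type. Such a gene may also be called in cell types for which it is not named. BTRC, the ubiquitin ligase receptor for phosphorylated β-catenin, was enriched in HEK293T cells (1.23 ± 0.05), neurons (1.07 ± 0.09) and mouse ES cells (0.54 ± 0.07). The casein kinase gene CSNK1A1 was enriched in liver bud progenitors (0.86 ± 0.08) and mouse ES cells (0.65 ± 0.05). GSK3A, the paralog of GSK3B, was depleted in HEK293T cells (-1.5 ± 0.11), neurons (-1.11 ± 0.16) and mouse ES cells (-0.99 ± 0.07). The neural paralog APC2 was depleted in neurons (-1.5 ± 0.11) where APC was enriched.

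Of 14 nuclear cofactors, 4 were enriched and 9 depleted of 14 counted in HEK293T cells, 2 and 7 of 14 in liver bud progenitors, 2 and 6 of 14 in neurons, and 4 and 5 of 13 in mouse ES cells. TLE4, a Groucho corepressor, was enriched in HEK293T cells (1.25 ± 0.05), neurons (0.68 ± 0.09) and mouse ES cells (1.05 ± 0.05). The β-catenin coactivator BCL9L was depleted in liver bud progenitors (-1.59 ± 0.08), neurons (-0.86 ± 0.13) and mouse ES cells (-0.74 ± 0.17). PYGO2 was depleted in HEK293T cells (-1.07 ± 0.11) and mouse ES cells (-0.46 ± 0.14), and the corepressor CTBP1 in neurons (-1.14 ± 0.13).

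The polarity and β-catenin-independent list, of 14 genes, gave 6 enriched and 6 depleted of 14 in HEK293T cells, 4 and 7 of 14 in liver bud progenitors, 4 and 5 of 14 in neurons, and 4 and 6 of 13 in mouse ES cells. DAAM1, a formin bound by Dishevelled, had the largest change of these in neurons, at a mean of 1778 ± 45.1 CPM (SD, n = 2) in P-bodies and 398.9 ± 9.68 CPM in the cytoplasm (2.16 ± 0.07, adjusted p = 1.40e-09, edgeR), and was enriched in mouse ES cells (0.95 ± 0.05). PRICKLE1 was enriched in HEK293T cells (1.5 ± 0.08), neurons (1.27 ± 0.17) and, at low level, mouse ES cells (1.57 ± 0.29). The receptor kinase RYK was enriched in liver bud progenitors (1.24 ± 0.08) and mouse ES cells (0.42 ± 0.09). Of the polarity cadherins, CELSR1 was depleted in liver bud progenitors (-1.52 ± 0.13), neurons (-1.28 ± 0.34) and mouse ES cells (-1.17 ± 0.06). CELSR2 was depleted in neurons (-1.38 ± 0.09) and mouse ES cells (-1.08 ± 0.16).

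Of the 14 secreted antagonists, 3 were enriched and 0 depleted of 4 counted in HEK293T cells, 0 and 3 of 7 in liver bud progenitors, 0 and 1 of 8 in neurons, and 0 and 1 of 4 in mouse ES cells. CER1 was depleted in liver bud progenitors (-0.55 ± 0.11), DKK3 in neurons (-1.37 ± 0.17) and Sfrp1 in mouse ES cells (-0.30 ± 0.06). Of the 14 R-spondin and receptor turnover genes, 4 were enriched and 3 depleted of 8 counted in HEK293T cells, 2 and 3 of 11 in liver bud progenitors, 2 and 3 of 11 in neurons, and 2 and 2 of 7 in mouse ES cells. LGR4, an R-spondin receptor, was enriched in liver bud progenitors (0.47 ± 0.16), neurons (1.00 ± 0.21) and mouse ES cells (0.57 ± 0.08). ZNRF3, the ligase that clears Frizzled from the membrane, was enriched in HEK293T cells (0.77 ± 0.09), neurons (0.97 ± 0.16) and mouse ES cells (0.44 ± 0.07). The cell-surface proteoglycan GPC3 was depleted in the 3 human cell types (-1.08, -0.55 and -0.76 in HEK293T cells, liver bud progenitors and neurons).

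Of the 16 target genes on the last list, 4 were enriched and 2 depleted of 13 counted in HEK293T cells, 1 and 5 of 11 in liver bud progenitors, 2 and 2 of 10 in neurons, and 3 and 3 of 13 in mouse ES cells. MYC was enriched in HEK293T cells (0.52 ± 0.06), CCND1 in liver bud progenitors (0.32 ± 0.07) and the feedback inhibitor NKD1 in neurons (0.41 ± 0.13). EPHB3, a receptor tyrosine kinase, was depleted in neurons (-1.31 ± 0.18) and mouse ES cells (-0.75 ± 0.15). The median log2 change of the target list was 0.11, -0.73, -0.13 and -0.05 in HEK293T cells, liver bud progenitors, neurons and mouse ES cells, beside the medians over all genes given above.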

How the data were processed

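P-body-seq libraries of 4 cell types, with 2 libraries per group, were compared. The deposited tables hold raw counts per gene symbol. Per the study's methods, the authors made counts from snapTotal-seq with the nf-core RNA-seq pipeline and salmon, and from Smart-seq with hisat and featureCounts, on hg38 or mm10 with UCSC refGene. Which route gave the polyA columns is not given in the sources used here. Genes with under 10 reads over all samples had been removed. Salmon divides reads shared by near-identical copies, and the counts of overlapping genes are uncertain where strand was not used. The authors' DESeq2 tables hold mean levels, fold changes, standard errors and p-values of their own comparisons and were not used. All 16 libraries were assigned to groups by their titles.

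Counts were scaled by TMM and fitted with edgeR 4.0.16 (R 4.3.3, quasi-likelihood test, two-sided, genes with at least 1 count in the libraries compared), within the 4 libraries of a cell type or the 8 of neurons and liver bud progenitors. P-values were adjusted by Benjamini and Hochberg over all genes tested and called under 0.05 with no minimum fold. Standard errors are the log2 change over the square root of F. Because scaling is within a comparison, CPM of the same library differ slightly between the 4-library and 8-library fits, and marker sums were scaled over the 12 human libraries. The precision follows the depth: 3 counts, the floor, equal 0.167 to 0.471 CPM, which covers counting error only. GC content, length and motifs came from the longest annotated transcript in GENCODE, matched by symbol for 43 of 43 human and 31 of 31 mouse members, and the GC trend is a loess curve with a span of 0.5 over all counted genes.

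Every member may be named. Values in every library are given for the 3 enriched and 3 depleted members with the smallest p in each cell type, 2 per direction for the other comparisons, and for CTNNB1, APC, GSK3B, AXIN2, LEF1 and FZD7. WNT2B, WNT3, WNT4, WNT5A, WNT7A, WNT9A, WNT7B between cell types, mouse Lrp6 and TCF7L2 in HEK293T cells were given so after their values were seen. List genes are the called gene of largest change per list, direction and cell type with a mean of at least 20 CPM. Further cell types with a call were added for BTRC, GSK3A, BCL9L, PYGO2, PRICKLE1, RYK, CELSR1, CELSR2 and ZNRF3 after their values were seen. Members and lists were chosen with earlier results of these data known. The scripts were tested on simulated data. Alternatives were DESeq2 1.42.0, RLE factors, library size only, filterByExpr, a replicate block, a fit of all human libraries, minimum levels of 0.5 and 5 CPM, and leaving out each library.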

Additional observations from a re-analysis of the deposited data

Results flagged for a closer look

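P-body enrichment differed between neurons and liver bud progenitors by the edgeR interaction test, in the direction neurons minus liver bud progenitors, for AXIN2 (1.47), FZD4 (1.28), DVL3 (0.36), CTNNB1 (-0.50), GSK3B (-0.75) and FZD3 (-1.24). These 6 differences are described with their libraries and errors in the report.

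For 5 members, both P-body libraries lay above both cytoplasm libraries in one cell type and below them in another. The difference between those cell types was not tested. Each gap given here sets a total RNA cell type against a polyA one, so cell type and library kind cannot be told apart. TCF7L2 changed by 0.68 in HEK293T cells and -0.55 in liver bud progenitors, a gap of 1.24 on the log2 scale. FZD3 stood at 0.78 in mouse ES cells and -0.38 in neurons, a gap of 1.16. FZD10, a receptor of the dorsal neural tube, stood at 0.88 ± 0.64 in liver bud progenitors. In mouse ES cells it stood at -0.09 ± 0.12, a gap of 0.97, with both values uncalled under TMM. The liver bud order of FZD10 rested on a near tie at low level, with P-body replicate 2 at 1.139 CPM and cytoplasm replicate 2 at 1.138 CPM. The mouse value of FZD10 was called as depletion with library size (-0.49, adjusted p = 0.000722, edgeR). GSK3B stood at 0.22 in mouse ES cells and -0.41 in neurons, a gap of 0.63, and its mouse value turned to -0.18 with scaling by library size. FZD7 stood at 0.14 in HEK293T cells and -0.41 in liver bud progenitors, a gap of 0.55. With 2 libraries per group, such an order arises for many genes: 73.9% to 85.2% of all counted genes had fractions that did not overlap within a cell type.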

How the results depend on the processing

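Of 285 values recomputed for the counts and medians, 240 stayed close to the reported value and 45 moved. The cause was not tested. Of 548 values for members with levels in every library, 518 kept direction and call, 10 lost and 4 gained the call, and 16 changed sign.

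With scaling by library size only, medians were -0.39 in HEK293T cells, -0.48 in liver bud progenitors, -0.26 in neurons, -0.49 in mouse ES cells (15 depleted), 0.38 for the interaction (6 higher in neurons) and 0.19 for the cytoplasm. The fit of all human libraries gave -0.14 in HEK293T cells, -0.53 in neurons, -0.06 for the interaction and 0.53 for the cytoplasm. DESeq2 gave -0.18 in HEK293T cells and 0.49 for the cytoplasm, and RLE factors -0.17 and 0.49. The filterByExpr filter gave -0.38 in liver bud progenitors, 0.17 for the interaction and 0.43 for the cytoplasm. A minimum of 0.5 CPM gave -0.06 in HEK293T cells, 0.41 for the cytoplasm and 0.57 for P-bodies, and 5 CPM gave -0.03, -0.39 in liver bud progenitors and 0.49 for the cytoplasm.

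Leaving out 1 library gave medians of -0.29 to -0.01 in HEK293T cells, -0.57 to -0.30 in neurons, -0.15 to 0.02 in mouse ES cells, -0.16 to 0.04 for the interaction and 0.38 to 0.53 for the cytoplasm. Depleted members in neurons numbered 7 to 14, and for the interaction 1 to 3 members were higher in neurons and 3 to 8 in liver bud progenitors. A group left with 1 library was assumed to vary like the others.

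Mouse Gsk3b (-0.18) and Lef1 (-0.17) changed sign with library size, and the other sign changes were of uncalled members. AXIN2 in liver bud progenitors became -0.12 (library size), -0.02 (filterByExpr) and between -0.04 and 0.15 without 1 library. LEF1 in liver bud progenitors became -0.02 (DESeq2, RLE factors and all human libraries), -0.18 (library size), -0.09 (filterByExpr) and between -0.07 and 0.06 without 1 library, where leaving out P-body replicate 2 gave -0.06. LEF1 in neurons became -0.03 (replicate block), -0.08 (all human libraries), and between -0.53 and 0.45 without 1 library, where leaving out cytoplasm replicate 1 gave -0.01.

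Replicate numbers are shared between fractions, and the main fits did not use them as pairs. In the study's protocol, P-bodies were sorted from a cytoplasmic fraction, and an aliquot of that fraction was kept. The labels do not say whether the same number marks the same preparation. Deviations of same-numbered libraries had correlations of -0.0276 to 0.0364 over all counted genes, which cannot decide this, since counting error may hide a shared deviation. With the replicate block the cytoplasm median was 0.60, and calls over all genes in neurons were 3131 enriched and 3589 depleted, against 2941 and 3113. Depth limits the scarce ligands and FZD9, which lie within a few multiples of the floor.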
